A study of Mus musculus with 20 samples.

Results

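The genes described here are the 60 mouse genes of solute carrier families 1, 3, 6, 7, 36, 38 and 43 (symbols beginning Slc1a, Slc3a, Slc6a, Slc7a, Slc36a, Slc38a or Slc43a) that had a probe set paired with a single gene symbol, out of 19937 genes measured that way. Slc38a1 and Slc38a9 had more than 1 such probe set, and the one with the highest average level was taken. Most of these genes encode amino acid transporters, but the families also hold carriers of other substrates. In family 6 these are carriers of monoamines, GABA, taurine, betaine and creatine, and Slc43a3 encodes a purine nucleobase transporter.

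Amino acids cross the plasma membrane through carriers that differ in what drives them. Uptake systems of the SLC1, SLC6 and SLC38 families use the sodium gradient, SLC36 carriers move amino acids together with protons, and many SLC7 light chains are obligatory exchangers that reach the surface only when joined to the heavy chain encoded by Slc3a2 or Slc3a1. The cationic carriers of the SLC7 family bring in arginine, lysine and ornithine without a heavy chain. The mammary epithelium uses these carriers to supply milk protein synthesis, and leucine, glutamine and arginine that enter through them feed signalling to mTORC1, a kinase complex that also lies downstream of PI3K.

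The data are 20 Affymetrix mouse gene arrays, each hybridised with amplified RNA of 2000 mammary cells sorted 4 weeks after tamoxifen from mice with a mixed FVB/CD-1 background. K8-creERT2/PIK3CA H1047R mice carry a tamoxifen-inducible Cre driven by keratin 8, a luminal keratin, together with a PIK3CA transgene that encodes an activated form of the PI3K catalytic subunit, and GFP marks cells in which it is on. K8-creERT2 mice, which carry the Cre and received tamoxifen but lack the transgene, were the controls. For each genotype, glands from a few mice in the same estrous stage were combined before sorting, in 3 separate sortings, and the labels used here give no ages. All cells were CD45-negative. The groups were GFP-positive mutant basal cells (CD24 low, Sca1-negative), GFP-negative mutant basal cells, control basal cells, GFP-positive mutant Sca1-negative luminal cells (CD24 high), control Sca1-negative luminal cells, GFP-positive mutant Sca1-positive luminal cells and control Sca1-positive luminal cells. Each had 3 arrays, except the mutant Sca1-positive luminal group, which had 2, numbered 1 and 3. All control cells were GFP-negative, so in the luminal gates the genotype and the selection of cells in which the Cre had acted cannot be told apart. In GFP-positive basal cells the transgene and that selection cannot be told apart either, whether against controls or against GFP-negative mutant cells. The series design asks how the transgene changed expression in each sorted population before tumours formed.

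The values are log2 probe set levels as deposited, and the median level of an array lay between 3.66 and 3.80. Arrays of the same group correlated at 0.931 to 0.971 over all 34760 probe sets. GFP-positive mutant basal replicate 2 and control Sca1-positive luminal replicate 2 had a narrower spread of levels (SD 1.71 and 1.72 over probe sets) than the other arrays (1.78 to 1.88). The basal and luminal gates differed in the markers of their labels. Mean log2 levels of 9 basal myoepithelial markers were 9.22 to 9.65 in 3 basal groups and 4.47 to 5.11 in 4 luminal groups. Ly6a, the gene that encodes Sca1, had no probe set paired with a single gene symbol. In Sca1-positive against Sca1-negative luminal controls, 5 of 6 luminal progenitor markers were lower (mean 6.36 against 8.63), as 0.577% of all genes were. The mean of 5 hormone-sensing luminal markers was 8.24 against 7.52, with 0 called. The mean of 8 immune cell markers was 3.63 to 3.76 in every group, and the pan-leukocyte gene Ptprc averaged 3.36 to 3.66. Cd68 of the same list was higher, at 5.14 to 6.92. It averaged 6.92 in mutant and 5.65 in control Sca1-negative luminal cells, a difference that was not called.

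Among the 60 transporter genes, 17 differed among the 7 groups at a Benjamini-Hochberg adjusted p under 0.05 in limma's moderated F test, which is 28.3% against 20.7% of all genes tested. Those 17 were Slc1a1 and Slc1a5 of the SLC1 family, the heavy chain gene Slc3a2, the light chain genes Slc7a5 and Slc7a6, the cationic carrier genes Slc7a2 and Slc7a4, Slc6a14, Slc6a6 and Slc6a8 of the SLC6 family, Slc38a1, Slc38a2, Slc38a3, Slc38a4 and Slc38a6 of the SLC38 family, and Slc43a1 and Slc43a3. The highest and lowest of their 7 group means differed by 0.46 to 3.75 on the log2 scale. For the other 43 genes the same range had a median of 0.26, and its highest value was 1.36, for Slc7a1. A probe set's level depends on its probes, so levels are compared here between groups for 1 gene and never between genes. In sorted pools, fewer cells of a type and less RNA per cell cannot be told apart.

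**Figure D1:**
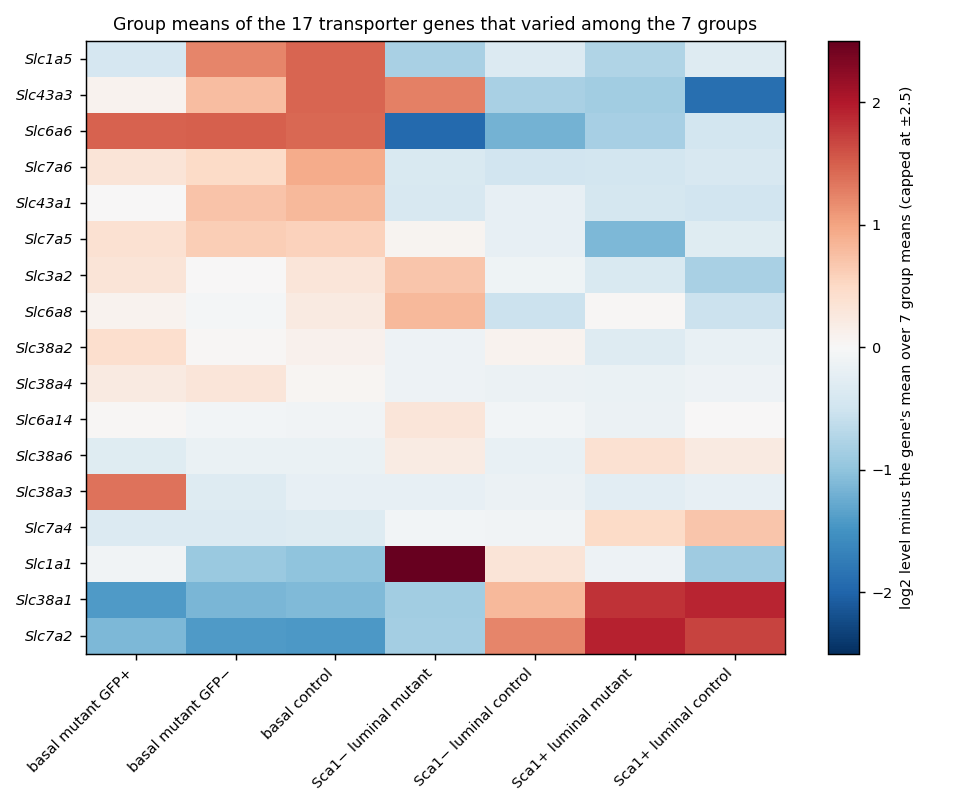
Heat map of the 17 transporter genes that differed among the 7 groups by limma's moderated F test (adjusted p under 0.05). Each row is a gene and each column a group; colour gives the log2 group mean minus the gene's mean over the 7 group means, capped at 2.5 in either direction. Slc1a1 is high in mutant Sca1-negative luminal cells, and Slc7a2 and Slc38a1 are low in that group while the other 3 luminal groups are high.

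Of the 9 genes that differed in a comparison involving mutants, 3 had an entry in RefSeq's table of gene starts used here (GRCm38.p6). They are shown as the sequence before the annotated start of genes described next; which start is used in these cells was not measured. Each line gives the 250 bases before the annotated start, 5′ to 3′ on the gene's strand, with GC boxes (GGGCGG or CCGCCC) in capitals. The windows are chr19:28834885-28835134 on the plus strand for Slc1a1, chrX:21714650-21714899 on the plus strand for Slc6a14 and chr5:148399905-148400154 on the minus strand for Slc7a1.
Slc1a1: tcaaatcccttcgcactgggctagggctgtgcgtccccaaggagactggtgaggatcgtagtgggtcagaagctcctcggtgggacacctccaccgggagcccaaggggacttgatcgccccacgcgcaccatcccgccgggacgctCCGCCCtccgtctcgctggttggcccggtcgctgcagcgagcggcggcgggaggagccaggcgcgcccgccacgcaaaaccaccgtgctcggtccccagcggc
Slc6a14: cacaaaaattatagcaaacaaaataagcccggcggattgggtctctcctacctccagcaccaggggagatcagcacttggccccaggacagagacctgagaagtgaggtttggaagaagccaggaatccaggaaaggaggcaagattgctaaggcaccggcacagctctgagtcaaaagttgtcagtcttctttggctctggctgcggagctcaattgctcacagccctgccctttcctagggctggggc
Slc7a1: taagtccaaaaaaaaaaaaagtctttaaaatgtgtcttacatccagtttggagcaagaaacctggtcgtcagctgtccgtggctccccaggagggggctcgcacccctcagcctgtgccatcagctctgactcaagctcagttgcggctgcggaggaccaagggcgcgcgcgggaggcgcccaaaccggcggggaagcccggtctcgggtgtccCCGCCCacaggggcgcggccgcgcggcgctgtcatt

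The Slc1a1 and Slc7a1 windows are rich in CpG, with 27 and 21 CpG dinucleotides and a GC content of 70.4% and 62.4%, and each holds 1 GC box. The Slc6a14 window has 4 CpG, 54.0% GC and 0 GC boxes. All 3 windows lack TGATGNAA, the core of the amino acid response element bound by ATF4, and GTAAACA, the FOXO core, on both strands. Over the 64 windows of the 43 transporter genes with an entry, TGATGNAA occurred in 6.25%, against 3.45% of all 32851 windows of the same length, and GTAAACA in 3.12% against 3.17%. These shares rest on few windows, 4 with TGATGNAA and 2 with GTAAACA. The 4 belong to 3 genes, Slc6a21, Slc7a11 and Slc7a7, none of which was called in a mutant comparison. The GC box occurred in 46.9% of the transporter windows against 32.7% of all windows. None of these motifs contains another, and a match is a run of letters and not a bound site.

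In Sca1-negative luminal cells, 6 of the 60 transporter genes differed between mutants and controls (10%), against 1.9% of all genes. Slc1a1, Slc43a3, Slc6a8 and Slc6a14 rose in the mutants (1.21% of all genes rose), and Slc7a2 and Slc38a1 fell (0.682% of all genes fell). The median log2 difference of the 60 genes was −0.037, against −0.029 for all genes. The arrays of both groups did not overlap for 16 of the 60 genes, against 22.6% of all genes, and 10 of the 60 had an unadjusted p under 0.05, against 11.2% of all genes. With only the arrays of these 2 groups in the fit, the calls of Slc43a3 (adjusted p = 0.0613), Slc6a14 (adjusted p = 0.0991) and Slc38a1 (adjusted p = 0.125) were lost.

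Slc1a1 encodes the sodium-driven glutamate, aspartate and cysteine transporter EAAT3. Its log2 levels were 7.27, 7.86 and 7.84 in mutant Sca1-negative luminal cells, against 4.79, 4.99 and 5.94 in control Sca1-negative luminal cells. Every mutant array lay above every control array, and no other group in the series came as high. Slc1a1 rose by 2.42 on the log2 scale (SE 0.28, 5.35-fold, limma adjusted p = 0.000166), and it was called under every alternative setting tried. The other 6 genes of the SLC1 family did not pass the test in this gate, and the median difference over all 7 was 0.003. Slc1a5, the ASCT2 exchanger best known for glutamine uptake, differed by −0.46 (adjusted p = 0.57).

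Slc7a2 encodes CAT2, an arginine, lysine and ornithine transporter, and moved the opposite way. Its log2 levels were 5.62, 6.10 and 5.87 in mutant Sca1-negative luminal cells, against 7.81, 7.71 and 8.25 in control Sca1-negative luminal cells. The mutant arrays sat within the range of the 3 basal groups, 4.99 to 6.11, and below every luminal array of the other groups. Slc7a2 fell by 2.06 (SE 0.26, 4.16-fold lower, adjusted p = 0.000322), again under every alternative setting. The other 4 cationic carrier genes did not pass the test in this gate.

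Slc38a1 encodes SNAT1, a sodium-coupled carrier of glutamine and other small neutral amino acids. Its log2 levels were 4.25, 4.80 and 3.83 in mutant Sca1-negative luminal cells, against 5.57, 6.80 and 5.56 in control Sca1-negative luminal cells. The groups did not overlap, and the mutant arrays again lay close to the basal groups, at 3.48 to 4.27. Slc38a1 fell by 1.68 (SE 0.31, 3.21-fold lower, adjusted p = 0.00832). The call rests on 1 of its 2 probe sets. The other probe set averaged 2.98 in mutant and 3.49 in control Sca1-negative luminal cells. It averaged 5.29 in GFP-negative mutant basal cells, against 2.97 to 3.50 in all other groups. With the mean of both probe sets the difference was −1.10 (adjusted p = 0.49), in a fit whose estimated spread includes the GFP-negative arrays. None of the other 10 SLC38 genes passed the test in this gate.

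Slc43a3, the purine nucleobase transporter gene, had log2 levels of 8.13, 7.64 and 8.93 in mutant Sca1-negative luminal cells, against 5.81, 6.62 and 6.08 in control Sca1-negative luminal cells. The groups did not overlap, and 1 mutant array lay above the control basal arrays (8.24, 8.86 and 8.17) and the other 2 below them. Slc43a3 rose by 2.07 (SE 0.32, 4.20-fold, adjusted p = 0.00206). Slc6a8, the creatine transporter gene, had log2 levels of 6.89, 6.64 and 7.09 in mutant against 5.50, 5.39 and 5.70 in control Sca1-negative luminal cells. It rose by 1.34 (SE 0.24, 2.53-fold, adjusted p = 0.00578), with no overlap and under every alternative setting.

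Slc6a14 encodes a broad carrier of neutral and cationic amino acids. Its log2 levels were 3.22, 3.26 and 3.37 in mutant Sca1-negative luminal cells, against 2.92, 3.00 and 2.82 in control Sca1-negative luminal cells. These levels are dim: Slc6a14 did not pass the filter on dim genes (mean above the median gene), which 22 of the 60 passed. It rose by 0.38 (SE 0.09, 1.30-fold, adjusted p = 0.0435), and the call held under 11 of 26 alternatives, with an adjusted p of up to 0.195. Leaving out any single array of either group ended the call (log2 difference 0.33 to 0.42), as did leaving out 8 single arrays of other groups, which changed only the estimated spread.

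Among the transporter genes of this gate that did not pass, the largest positive differences were 0.80 for the heavy chain gene Slc3a2 (adjusted p = 0.164), 0.40 for Slc38a7, a lysosomal glutamine carrier gene (adjusted p = 0.295), and 0.40 for Slc7a11, the cystine-glutamate exchanger gene (adjusted p = 0.62). The Slc7a11 difference was 0.08 without mutant replicate 3 and 0.65 without mutant replicate 1. Slc3a2 had log2 levels of 9.58, 9.29 and 9.72 in mutant and 9.13, 8.36 and 8.69 in control Sca1-negative luminal cells, with no overlap, and its adjusted p was 0.0383 with array weights. The largest negative differences were −0.76 for the taurine carrier gene Slc6a6 (adjusted p = 0.186), −0.46 for Slc1a5 and −0.44 for the light chain gene Slc7a7 (adjusted p = 0.746). Without control replicate 1 the Slc6a6 difference was −1.04 (adjusted p = 0.0446), and without control replicate 3 it was −0.50. The Slc7a7 difference was −0.29 without control replicate 3. None of the 10 light chain genes passed in this or any other mutant comparison.

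Markers of other luminal cell states moved in the same gate. The mean log2 level of 5 hormone-sensing luminal markers was 5.62 in mutant Sca1-negative luminal cells (arrays 5.46 to 5.80), against 7.52 in control Sca1-negative luminal cells (arrays 7.37 to 7.76), and 4 of the 5 fell (Esr1, Foxa1, Pgr and Prom1). The mean of 6 luminal progenitor markers was 9.25 in mutant and 8.63 in control cells, of which Elf5 rose. The mean of 4 milk genes was 10.6 in mutant and 8.09 in control cells, of which Wap rose. The basal myoepithelial markers averaged 5.11 in mutant and 4.90 in control cells, with 0 of 9 called. Of the lists for other cell types, Dcn of the fibroblast list fell and Sox10 of the neuron and Schwann list rose. Both genes also differed between control basal cells and each luminal control gate. Dcn averaged 7.43 in basal, 10.48 in Sca1-negative luminal and 11.20 in Sca1-positive luminal controls, and Sox10 averaged 6.27, 4.90 and 4.52. There were 0 called among 8 immune, 5 endothelial, 5 pericyte, 5 adipocyte and 1 erythroid markers. The part of these shifts in the transporter differences was not tested.

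**Figure D2:**
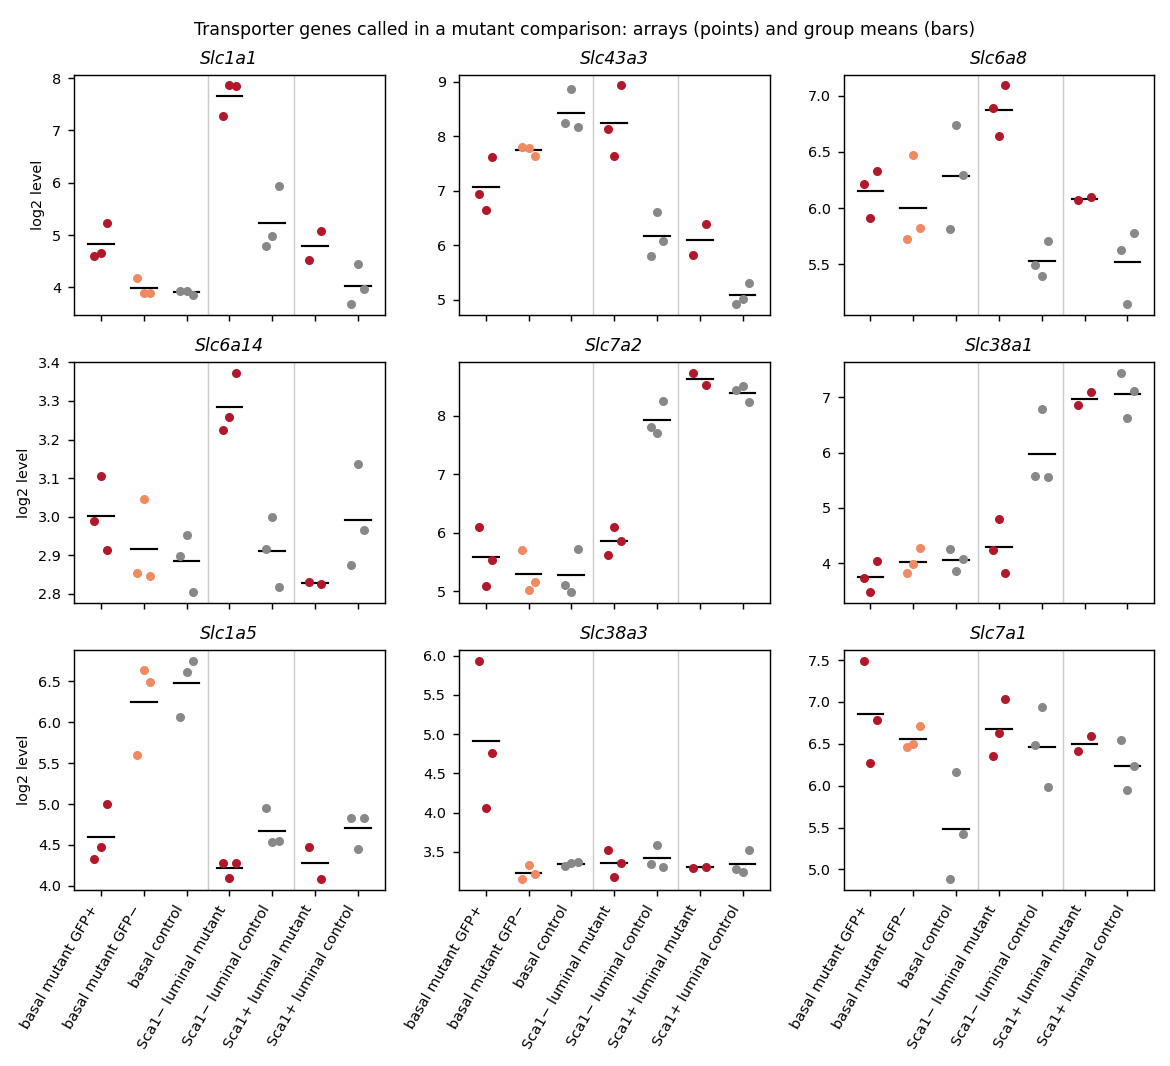
Log2 level of the 9 transporter genes called in at least 1 mutant comparison, 1 panel per gene, with a point for each array and a bar for each group mean. Groups run from left to right as basal, Sca1-negative luminal and Sca1-positive luminal, with mutants (red, and orange for GFP-negative mutant basal cells) left of controls (grey); the vertical axes differ between panels and do not start at 0. In Sca1-negative luminal cells the mutant points of Slc1a1, Slc43a3, Slc6a8 and Slc6a14 lie above the control points and those of Slc7a2 and Slc38a1 below them.

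In Sca1-positive luminal cells, where the mutant group had 2 arrays, 0 of the 60 transporter genes passed the test in limma, against 0.226% of all genes (0.181% higher and 0.0451% lower). At an unadjusted p under 0.05 there were 7, against 8.96% of all genes, and the arrays did not overlap for 17 of the 60, against 28.6% of all genes. The median difference of the 60 genes was −0.08, against −0.051 for all genes. The largest positive differences were 1.02 for Slc43a3 (adjusted p = 0.365), 0.76 for Slc1a1 (adjusted p = 0.5) and 0.56 for Slc6a8 (adjusted p = 0.556). All 3 had risen in mutant Sca1-negative luminal cells.

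Slc1a1 had log2 levels of 4.51 and 5.07 in mutant Sca1-positive luminal cells, against 3.68, 4.45 and 3.97 in control Sca1-positive luminal cells. The mutant arrays lay just above the controls, and without mutant replicate 3 the difference was 0.48. Slc43a3 had 5.82 and 6.40 in mutant against 4.92, 5.02 and 5.30 in control cells, without overlap. Slc6a8 had 6.07 and 6.10 in mutant against 5.63, 5.15 and 5.78 in control cells, also without overlap.

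Slc7a2 and Slc38a1, which fell in mutant Sca1-negative luminal cells, were close to their controls in the Sca1-positive gate. Slc7a2 had log2 levels of 8.73 and 8.52 in mutant against 8.43, 8.52 and 8.24 in control Sca1-positive luminal cells (difference 0.23, SE 0.29, adjusted p = 0.838). Slc38a1 had 6.86 and 7.09 in mutant against 7.44, 6.63 and 7.12 in control cells (difference −0.09, SE 0.35, adjusted p = 0.961). In this gate the hormone-sensing markers averaged 8.31 in mutant and 8.24 in control cells, with 0 of 5 called. The 6 luminal progenitor markers averaged 7.36 in mutant (arrays 7.31 to 7.42) and 6.36 in control cells (arrays 6.24 to 6.48). The 4 milk genes averaged 9.81 in mutant and 6.50 in control cells, and the 9 basal myoepithelial markers 5.05 in mutant (arrays 4.84 to 5.26) and 4.47 in control cells (arrays 4.34 to 4.56), each without overlap of the arrays. The basal keratin gene Krt5, the luminal progenitor gene Lcn2 and the milk gene Wap rose in the mutants, and 0 of the immune, endothelial, fibroblast, pericyte, adipocyte, neuron and Schwann, or erythroid markers were called. Their part in the transporter values was not tested.

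The largest negative differences in Sca1-positive cells were −0.81 for Slc7a5, the light chain gene of the leucine exchanger LAT1 (adjusted p = 0.565), −0.43 for Slc1a5 (adjusted p = 0.693) and −0.38 for Slc6a6 (adjusted p = 0.721). Slc7a5 had log2 levels of 6.93 and 7.89 in mutant against 8.19, 7.93 and 8.51 in control cells. The mutant arrays disagreed, and the difference was −0.33 without mutant replicate 1 and −1.28 without mutant replicate 3. Without mutant replicate 3 the Slc1a5 difference was −0.23.

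In basal cells, GFP-positive mutants differed from controls in 4 of the 60 transporter genes (6.67%), against 4.23% of all genes. Slc38a3 and Slc7a1 rose (2.32% of all genes rose), and Slc1a5 and Slc43a3 fell (1.91% of all genes fell). The median difference of the 60 was −0.044, against −0.032 for all genes, and 9 of the 60 were under 0.05 before adjustment, against 16% of all genes. There was no overlap of the arrays for 12 of the 60 genes, against 18.6% of all genes.

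Slc1a5 had log2 levels of 4.33, 4.47 and 5.0 in GFP-positive mutant basal cells, 5.60, 6.64 and 6.49 in GFP-negative mutant basal cells, and 6.07, 6.62 and 6.75 in control basal cells. The GFP-positive arrays lay below all arrays of the other basal groups and within the range of the luminal groups, 4.08 to 4.95, or just above it. Slc1a5 fell by 1.88 against controls (SE 0.26, 3.68-fold lower, adjusted p = 0.000341), under every alternative setting. Against GFP-negative cells of the same mutants it fell by 1.64 (SE 0.26, 3.12-fold lower, adjusted p = 0.00135).

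Slc38a3 encodes SNAT3, which couples glutamine, histidine and asparagine to sodium and proton movement and is best known from liver, kidney and astrocytes. Its log2 levels were 5.94, 4.06 and 4.75 in GFP-positive mutant basal cells, 3.15, 3.33 and 3.22 in GFP-negative mutant basal cells, and 3.32, 3.36 and 3.37 in control basal cells. The GFP-positive arrays varied widely but all lay above every other array of the series, whose highest value was 3.59. Slc38a3 did not pass the filter on dim genes, since its mean over all arrays was 3.57, below the median gene at 3.86. Slc38a3 rose by 1.57 against controls (SE 0.30, 2.97-fold, adjusted p = 0.00552) and by 1.69 against GFP-negative mutant cells (SE 0.30, 3.22-fold, adjusted p = 0.00373). With only the arrays of the compared groups in the fit, the same differences had adjusted p of 0.214 and 0.242, and that of Slc1a5 against GFP-negative cells had 0.127.

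Slc43a3 had log2 levels of 6.93, 6.64 and 7.62 in GFP-positive mutant, 7.81, 7.79 and 7.63 in GFP-negative mutant and 8.24, 8.86 and 8.17 in control basal cells. The levels of the 3 groups did not overlap, and the GFP-negative group lay between the others. Slc43a3 fell by 1.36 in GFP-positive cells against controls (SE 0.32, 2.56-fold lower, adjusted p = 0.0209), opposite to its rise in Sca1-negative luminal cells. The call ended without control replicate 2 (−1.14, adjusted p = 0.0893), without GFP-positive replicate 1 (−1.29, adjusted p = 0.0755) and without GFP-positive replicate 2 (−1.15, adjusted p = 0.0935). It also ended with array weights (−1.27, adjusted p = 0.0699) and with only the compared arrays in the fit (adjusted p = 0.121).

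Slc7a1, which encodes the widely expressed cationic carrier CAT1, had log2 levels of 7.49, 6.28 and 6.79 in GFP-positive mutant, 6.47, 6.50 and 6.72 in GFP-negative mutant and 4.88, 6.16 and 5.42 in control basal cells. All 6 mutant arrays lay above the controls. Slc7a1 rose by 1.36 in GFP-positive cells (SE 0.33, 2.57-fold, adjusted p = 0.0279). In GFP-negative mutant cells the difference was 1.07 (SE 0.33, adjusted p = 0.268), and GFP-positive and GFP-negative cells differed by 0.29 (adjusted p = 0.819). The GFP-positive call ended without control replicate 1 (1.06, adjusted p = 0.118), without control replicate 3 (1.33, adjusted p = 0.0802), without GFP-positive replicate 1 (1.04, adjusted p = 0.131) and without GFP-positive replicate 3 (1.40, adjusted p = 0.0665), and it had an adjusted p of 0.245 with only the compared arrays in the fit.

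Slc1a1 had log2 levels of 4.61, 4.65 and 5.24 in GFP-positive mutant, 4.19, 3.89 and 3.89 in GFP-negative mutant and 3.93, 3.94 and 3.86 in control basal cells. The GFP-positive arrays lay above all others of the basal gate, by 0.92 on average over controls (SE 0.28, adjusted p = 0.0825) and by 0.84 over GFP-negative cells (adjusted p = 0.144), neither of which passed the test. Without control Sca1-negative luminal replicate 3, which enters only the estimated spread, the adjusted p against controls was 0.0306.

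Other positive differences between GFP-positive mutant and control basal cells were 0.39 for the noradrenaline carrier gene Slc6a2 (adjusted p = 0.144) and 0.31 for Slc7a2 (adjusted p = 0.641). The Slc6a2 difference was 0.55 without GFP-positive replicate 2 (adjusted p = 0.0223) and 0.25 without GFP-positive replicate 1, and that of Slc7a2 ranged from 0.04 to 0.55 when single basal arrays were left out. The largest negative differences that did not pass were −1.19 for Slc7a7 (adjusted p = 0.0573), −0.81 for Slc43a1, a carrier of large neutral amino acids (adjusted p = 0.149), and −0.64 for the glycine carrier gene Slc6a9 (adjusted p = 0.395). Slc7a7 had log2 levels of 4.31, 3.53 and 3.63 in GFP-positive mutant, 4.36, 3.99 and 4.34 in GFP-negative mutant and 5.37, 5.35 and 4.33 in control basal cells. Its adjusted p was 0.0167 without control replicate 3 (difference −1.54), 0.0411 without GFP-positive replicate 1, and 0.0367 and 0.0211 without control Sca1-positive luminal replicates 2 and 3. Without GFP-positive replicate 3 Slc43a1 differed by −1.12 (adjusted p = 0.0393), and without control replicate 3 Slc6a9 differed by −0.24.

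GFP-negative basal cells come from the mutant mice but lack GFP, the mark of cells in which the transgene is on. They differed from controls in 0 of the 60 transporter genes by limma, against 0.161% of all genes (0.0953% higher and 0.0652% lower). At an unadjusted p under 0.05 there were 6, against 9.69% of all genes, and the arrays did not overlap for 8 of the 60, against 13.7% of all genes. The median difference was −0.017, against −0.023 for all genes. Besides Slc7a1, the largest positive differences were 0.37 for Slc38a7 (adjusted p = 0.444) and 0.36 for Slc7a11 (adjusted p = 0.687), which was 0.15 without GFP-negative replicate 2. The largest negative ones were −0.79 for Slc7a7 (adjusted p = 0.463), −0.70 for the proton-coupled carrier gene Slc36a1 (adjusted p = 0.445) and −0.68 for Slc43a3 (adjusted p = 0.512). The Slc36a1 difference was −0.19 without control replicate 1. Slc1a1 differed by 0.08 (adjusted p = 0.974).

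Between GFP-positive and GFP-negative basal cells of the mutants, 2 of the 60 transporter genes were called (3.33%), against 3.25% of all genes, so the share was close to the background. They were Slc38a3, higher in GFP-positive cells as 2.05% of all genes were, and Slc1a5, lower as 1.2% of all genes were. The median difference was −0.019, against −0.008 for all genes, and 9 of the 60 had an unadjusted p under 0.05, against 13.5% of all genes. There was no overlap of the arrays for 13 of the 60 genes, against 15% of all genes. Among genes that did not pass, Slc38a2, which encodes the SNAT2 carrier of small neutral amino acids, had log2 levels of 10.57, 10.41 and 10.64 in GFP-positive mutant, 10.18, 10.19 and 10.13 in GFP-negative mutant and 10.31, 10.34 and 10.08 in control basal cells. The GFP-positive arrays did not overlap either group, with a difference of 0.38 against GFP-negative cells (adjusted p = 0.174). Slc6a15, which encodes a branched-chain amino acid and proline carrier, differed by 0.35 (adjusted p = 0.514, and by 0.23 without GFP-positive replicate 3). The largest negative differences were −0.83 for Slc6a9 (adjusted p = 0.281), −0.71 for Slc43a1 (adjusted p = 0.266) and −0.68 for Slc43a3 (adjusted p = 0.361). Without GFP-negative replicate 2 those of Slc6a9 and Slc43a1 were −0.45 and −0.37.

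Some luminal markers and milk genes also rose in the GFP-positive basal cells. The mean log2 level of 7 general luminal markers was 8.89 in GFP-positive mutant basal cells (arrays 8.36 to 9.29), against 8.31 in control basal cells (arrays 7.92 to 8.63), and Krt18 and Krt19 rose. The 9 basal myoepithelial markers averaged 9.22 in GFP-positive mutant and 9.65 in control basal cells, of which Myh11 and Oxtr fell. The 4 milk genes averaged 9.49 in GFP-positive mutant and 5.88 in control basal cells, and Csn1s1, Csn2 and Wap rose. Of 6 luminal progenitor markers Cd14 and Elf5 rose. Of 6 genes of the fibroblast list Col1a2 rose, and so did Dcn, which was lower in basal than in luminal controls. Of 5 endothelial markers Cdh5 fell, of 5 pericyte markers Cspg4 rose and of 4 neuron and Schwann markers S100b fell, with 0 called among the immune, adipocyte and erythroid markers. Against GFP-negative mutant cells, Krt18, Elf5, Dcn and Col1a2 were higher and Myh11 was lower in GFP-positive cells. In GFP-negative mutant against control basal cells S100b was the 1 marker called. The 4 milk genes averaged 7.11 in GFP-negative mutant (arrays 5.72 to 8.01) and 5.88 in control basal cells (arrays 4.87 to 6.97), with 0 called. Slc1a5 and Slc43a3, which fell in GFP-positive basal cells, were lower in luminal than in basal cells of controls, and Slc38a3 was at 3.24 to 3.59 in all control gates. Slc7a1, which rose in GFP-positive basal cells, averaged 5.49 in basal controls against 6.47 in Sca1-negative and 6.24 in Sca1-positive luminal controls, differences that did not pass (adjusted p = 0.0823 and 0.184). The part of these markers in the transporter differences was not tested.

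**Figure D3:**
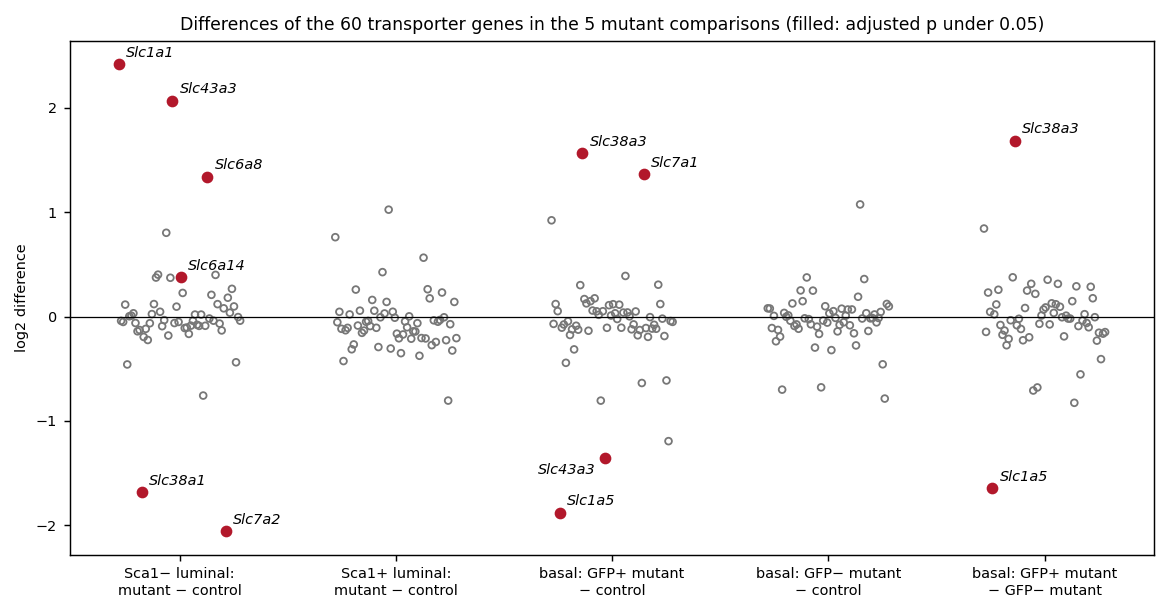
Log2 differences of all 60 transporter genes in the 5 mutant comparisons, each point a gene, with genes in alphabetical order from left to right within a comparison. Filled red points passed limma's test at an adjusted p under 0.05 and are named; open points did not. The Sca1-negative luminal comparison holds 6 filled points, GFP-positive mutant against control basal cells 4, GFP-positive against GFP-negative mutant basal cells 2, and the other comparisons 0.

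Whether the mutant effect differed between gates was tested by interaction terms. Between the luminal gates, 1 of the 60 genes passed, against 0.14% of all genes (0.11% in the same direction). The mutant effect on Slc7a2 was 2.29 higher in Sca1-positive than in Sca1-negative cells (SE 0.38, adjusted p = 0.0207). That call ended without control Sca1-negative replicate 3 (2.13, adjusted p = 0.0619), control Sca1-positive replicate 3 (2.21, adjusted p = 0.0557), mutant Sca1-negative replicate 1 (2.17, adjusted p = 0.0559), mutant Sca1-positive replicate 1 (2.18, adjusted p = 0.0744) or mutant Sca1-positive replicate 3 (2.39, adjusted p = 0.0768). For Slc1a1 the same term was −1.66 (SE 0.42, adjusted p = 0.203) and for Slc38a1 1.60 (SE 0.47, adjusted p = 0.335), neither of which passed. Without control Sca1-negative replicate 3 the Slc1a1 term was −2.01 and passed (adjusted p = 0.0447). At an unadjusted p under 0.05 there were 6 of the 60, against 5.66% of all genes.

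Between GFP-positive basal and Sca1-negative luminal cells, the mutant effect differed for 3 of the 60 genes, 1 higher and 2 lower, against 1.55% of all genes (0.938% higher and 0.617% lower). Before adjustment, 13 of the 60 were under 0.05, against 10.2% of all genes. The effect on Slc43a3 was 3.43 lower in basal cells (log2 difference of differences −3.43, SE 0.45, adjusted p = 0.000517). The effect on Slc7a2 was 2.36 higher in basal cells (SE 0.36, adjusted p = 0.00217). That on Slc6a8 differed by −1.47 (SE 0.33, adjusted p = 0.0359), a call that held under 14 of 27 alternatives. It ended when any single array of control Sca1-negative luminal cells was left out, and also without any one of control basal replicates 2 and 3, GFP-positive basal replicates 1 and 2, mutant Sca1-negative replicates 1 and 3 or mutant Sca1-positive replicates 1 and 3, with an adjusted p of up to 0.096. For Slc1a1 the term was −1.50 (SE 0.40, adjusted p = 0.0849), and without control Sca1-negative luminal replicate 3 it was −1.85 and passed (adjusted p = 0.0117).

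Between GFP-positive basal and Sca1-positive luminal cells, Slc43a3 was the 1 gene of the 60 that passed, against 1.09% of all genes (0.512% in the same direction), with 5 at an unadjusted p under 0.05, against 10.2% of all genes. Its mutant effect was 2.38 lower in basal cells (difference of differences −2.38, SE 0.47, adjusted p = 0.0207). The call ended without control Sca1-positive replicate 2 (−2.35, adjusted p = 0.0511) and without mutant Sca1-positive replicate 3 (−2.09, adjusted p = 0.147). Slc1a1 differed by 0.16 between these gates (adjusted p = 0.936).

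In control mice, some transporter genes had different levels in basal and luminal cells. Basal and Sca1-negative luminal cells differed in 8 of the 60 genes (13.3%), against 9.89% of all genes, with 5 higher in basal cells (4.67% of all genes) and 3 lower (5.22%). Basal and Sca1-positive luminal cells differed in 11 (18.3%), against 12.3% of all genes, with 7 higher (5.94% of all genes) and 4 lower (6.32% of all genes). Genes with an unadjusted p under 0.05 numbered 12, against 20% of all genes, and 19, against 23%. The arrays did not overlap for 15 genes in the first comparison, against 25.9% of all genes, and for 18 in the second, against 25.1%. With only the compared arrays in the fit, the calls of Slc1a1 (adjusted p = 0.0543), Slc43a1 (0.054) and Slc7a6 (0.0866) were lost in the first and those of Slc7a4 (0.0682), Slc7a6 (0.0723), Slc6a8 (0.177) and Slc38a6 (0.222) in the second.

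Slc6a6, the taurine carrier gene, had log2 levels of 8.39, 8.74 and 9.25 in control basal cells, against 5.61, 6.23 and 6.68 in Sca1-negative and 6.66, 6.89 and 7.15 in Sca1-positive luminal controls. All 9 basal arrays of the series, mutants included, lay at 8.39 or above and all luminal arrays at 7.15 or below. Slc6a6 was 2.62 higher in basal than in Sca1-negative luminal controls (adjusted p = 2.59e-06) and 1.89 higher than in Sca1-positive ones (adjusted p = 5.9e-05). In mutant basal cells it had 8.88, 8.91 and 8.72 in the GFP-positive and 9.15, 8.58 and 8.85 in the GFP-negative group, which differed from controls by 0.05 and 0.07.

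Slc43a3 was 2.25 higher in basal than in Sca1-negative luminal controls (adjusted p = 0.000142) and 3.34 higher than in Sca1-positive luminal controls (adjusted p = 1.66e-06). Slc1a5 was higher in basal cells by 1.80 (adjusted p = 0.000175) and 1.78 (adjusted p = 0.000154), with 6.07, 6.62 and 6.75 in basal, 4.95, 4.53 and 4.54 in Sca1-negative luminal and 4.83, 4.45 and 4.82 in Sca1-positive luminal controls. The light chain gene Slc7a6 was higher in basal cells by 1.42 (adjusted p = 0.00605) and 1.33 (adjusted p = 0.00814). Slc43a1 was higher by 1.02 (adjusted p = 0.0323) and 1.28 (adjusted p = 0.0064), and the smaller of these calls ended without control basal replicate 1 (0.95, adjusted p = 0.0962) or 3 (0.83, adjusted p = 0.138) and without any one Sca1-negative luminal array (adjusted p of up to 0.0995).

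Slc3a2 and Slc6a8 were higher in basal than in Sca1-positive luminal controls, by 1.11 (adjusted p = 0.00744) and 0.76 (adjusted p = 0.045). The Slc6a8 call was kept under 10 of 27 alternatives. Its difference was 0.54 without control basal replicate 2 (adjusted p = 0.203) and 0.58 without control Sca1-positive replicate 2 (adjusted p = 0.189), and 0.76 to 0.82 in the other fits without 1 array that ended the call. Those left out control basal replicate 3, any one control Sca1-negative luminal array, control Sca1-positive replicate 1, or replicate 1 or 3 of the GFP-positive basal group or of either mutant luminal group. Against Sca1-negative luminal controls the differences were 0.41 (adjusted p = 0.427) for Slc3a2 and 0.75 (adjusted p = 0.0574) for Slc6a8.

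Slc7a2 and Slc38a1 had the largest negative differences of the 60 genes in both comparisons, which means lower in basal cells. Slc7a2 differed by −2.65 against Sca1-negative luminal cells (SE 0.26, adjusted p = 2.96e-06) and by −3.12 against Sca1-positive luminal cells (SE 0.26, adjusted p = 3.42e-07). Slc38a1 differed by −1.91 (adjusted p = 0.000603) and −2.99 (adjusted p = 4.71e-06), but with the mean of its 2 probe sets by −1.14 (adjusted p = 0.264) and −1.66 (adjusted p = 0.063). The 3 control basal arrays of Slc38a1 were at 4.25, 3.86 and 4.09, below all 6 luminal control arrays.

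Slc1a1 was lower in basal than in Sca1-negative luminal controls (difference −1.33, adjusted p = 0.00476) and close to Sca1-positive ones (difference −0.12, SE 0.28, adjusted p = 0.875). Slc7a4, a gene of the cationic carrier family, and Slc38a6, of the SLC38 family, were lower in basal than in Sca1-positive luminal controls (differences −1.02, adjusted p = 0.00603, and −0.38, adjusted p = 0.0301). Their differences against Sca1-negative luminal controls did not pass. The Slc38a6 call ended without control basal replicate 2 (−0.36, adjusted p = 0.0878) or 3 (−0.35, adjusted p = 0.102) and without control Sca1-positive replicate 1 (−0.24, adjusted p = 0.145).

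**Figure D4:**
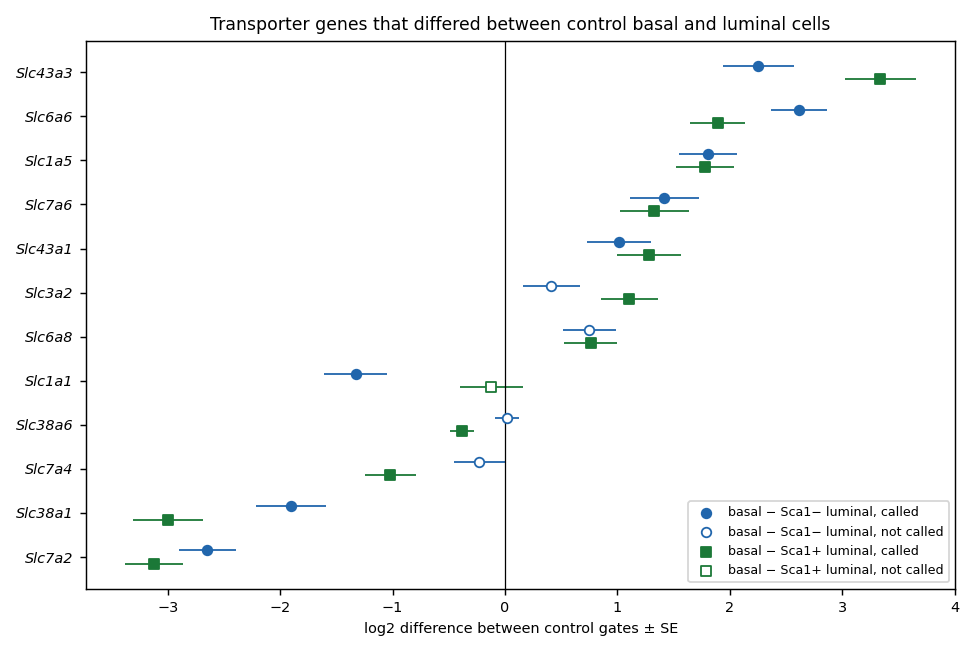
Log2 differences (points) with their standard errors (bars) for the 12 transporter genes called between control basal cells and control Sca1-negative luminal cells (blue circles) or control Sca1-positive luminal cells (green squares), as basal minus luminal. Filled symbols passed limma's test at an adjusted p under 0.05. Slc43a3, Slc6a6 and Slc1a5 lie farthest to the right (higher in basal cells) and Slc7a2 and Slc38a1 farthest to the left.

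Between the luminal gates of controls, 0 of the 60 transporter genes passed in limma, against 0.762% of all genes (0.186% higher and 0.577% lower), with 10 at an unadjusted p under 0.05, against 7.84% of all genes. There was no overlap of the arrays for 9 of the 60, against 13.3% of all genes. The largest differences, as Sca1-positive minus Sca1-negative, were 1.09 for Slc38a1 (adjusted p = 0.177), 0.79 for Slc7a4 (adjusted p = 0.173) and 0.73 for Slc6a6 (adjusted p = 0.319) on the positive side. On the negative side they were −1.21 for Slc1a1 (adjusted p = 0.0647), −1.08 for Slc43a3 (adjusted p = 0.188) and −0.69 for Slc3a2 (adjusted p = 0.373). The Slc1a1 difference passed with array weights (−1.36, adjusted p = 0.0336) and with dim genes left out (adjusted p = 0.0373).

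Of the 60 genes, 6 were called both in a mutant comparison and between control gates (Slc1a1, Slc1a5, Slc38a1, Slc43a3, Slc6a8 and Slc7a2), 3 only in a mutant comparison (Slc38a3, Slc6a14 and Slc7a1), 6 only between control gates (Slc3a2, Slc6a6, Slc7a4, Slc7a6, Slc38a6 and Slc43a1) and 45 in neither. The comparisons share control arrays, so these counts are not independent of each other.

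By role, the SLC1 family had 2 of 7 genes that differed among the groups, and the other 5 had group means within 0.46 of each other. Of the heavy chains, Slc3a2 differed and Slc3a1 had a range of 0.25. Of 10 light chain genes, 2 differed (Slc7a5 and Slc7a6), and Slc7a7 had the widest range among the other 8, at 1.30. Slc7a5 had log2 levels of 9.06, 8.21 and 9.44 in GFP-positive mutant, 9.25, 9.03 and 9.13 in GFP-negative mutant and 8.31, 9.34 and 9.62 in control basal cells, which overlapped. Of 5 cationic carrier genes 2 differed, and of 5 SLC6 amino acid carrier genes 1 did. Of 12 SLC6 genes for neurotransmitters and osmolytes, 2 differed (Slc6a6 and Slc6a8), and the group means of the other 10 ranged by 0.10 to 0.89. None of the 4 proton-coupled carrier genes passed, with ranges of 0.27 to 0.70. Of 11 SLC38 genes 5 differed, and of 3 SLC43 genes 2 did. These counts stand against 20.7% of all genes, and no difference between roles was tested. Slc6a21, which was in none of these groups, had a range of 0.33.

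Genes that respond to amino acid supply were read alongside the transporters. Of 16 genes of the ATF4 and amino acid deprivation response, Stc2, a secreted glycoprotein gene, fell in mutant Sca1-negative luminal cells (−2.43, adjusted p = 5.14e-05). That was 1 of the 16, against 1.9% of all genes, and the median over the 16 was 0.163, against −0.029 for all genes. In GFP-positive mutant against control basal cells Vldlr, a lipoprotein receptor gene (2.44, adjusted p = 8.64e-06), and Ddit4, an mTORC1 inhibitor gene (1.55, adjusted p = 0.00745), rose and Atf3, a stress transcription factor gene, fell (−0.70, adjusted p = 0.00244). Those were 3 of the 16, against 4.23% of all genes, with a median of 0.073, against −0.032 for all genes. The same 3 genes were called in the same directions against GFP-negative mutant basal cells, against 3.25% of all genes. The median was 0.151, against −0.008 for all genes. No other gene of the list passed in a mutant comparison.

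Of 22 measured genes of amino acid synthesis and use, Psat1 of serine synthesis rose (1.25, adjusted p = 0.0482) and Arg2, a mitochondrial arginase gene, fell (−1.36, adjusted p = 0.0088) in mutant Sca1-negative luminal cells. Those were 2 of the 22, against 1.9% of all genes. In the other mutant comparisons 0 were called, against 0.161% to 4.23% of all genes. Of 23 measured genes of amino acid sensing by mTORC1, Sesn3, a sestrin gene, rose in GFP-positive basal cells against controls (2.81, adjusted p = 0.000116) and against GFP-negative cells (2.94, adjusted p = 8.92e-05). That was 1 of the 23 in each comparison, against 4.23% and 3.25% of all genes. Of 12 measured glutathione genes, Gclm (1.21, adjusted p = 0.0488) and Hmox1 (1.55, adjusted p = 0.00534) were higher in GFP-positive than in GFP-negative mutant basal cells, as 2.05% of all genes were. None of the genes of these 4 lists was called in Sca1-positive luminal mutants or in GFP-negative basal cells against controls, where 0.226% and 0.161% of all genes were.

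Between control gates the 4 lists were read against the same background, in which 5.22% of all genes were lower in basal than in Sca1-negative luminal cells and 6.32% than in Sca1-positive ones. Of the 16 genes of the ATF4 response, 7 were lower in basal than in Sca1-negative luminal controls (Atf4, Asns, Chac1, Eif2ak3, Nupr1, Sesn2 and Stc2) and Cebpb was higher. Chac1, a glutathione-degrading enzyme gene, differed by −2.01 (adjusted p = 0.00835) and Asns, the asparagine synthetase gene, by −1.04 (adjusted p = 0.0146). Against Sca1-positive luminal controls, Nupr1 and Stc2 were lower in basal cells and Cebpb was higher. Of 12 glutathione genes, 4 were lower in basal cells than in Sca1-negative (Gclc, Gclm, Gsr and Hmox1) and 4 than in Sca1-positive luminal controls (Gclc, Gclm, Ggt7 and Gsr). Of 23 mTORC1 sensing genes, Fnip1 and Rragc were lower in basal cells in both comparisons. None of the genes of the 4 lists was called between the luminal gates of controls, where 0.762% of all genes were.

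Of the 22 genes of synthesis and use, Arg1, Arg2, Glul, Got1 and Mthfd2 were lower in basal cells than in either luminal gate, and Gpt2 was higher than in the Sca1-positive gate. Glul, which encodes glutamine synthetase, differed by −3.28 (adjusted p = 7.35e-05) and −3.68 (adjusted p = 1.71e-05). Arg2 differed by −2.76 (adjusted p = 1.89e-06) and −3.24 (adjusted p = 2.05e-07). Arg2 also had a mutant effect that was higher in Sca1-positive than in Sca1-negative luminal cells (2.08, adjusted p = 0.0422). The medians over the 22 genes were −0.138 and −0.006, against 0.011 and −0.007 for all genes.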

How the data were processed

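The deposited values are log2 probe set levels with 1 column per array, and the unit was read from the values (1.98 to 13.07). Per the submitters' processing notes, affy was among the tools, without its role, and the normalization method is not stated in the sources used here. The values were used as deposited by the authors, with no further normalization or filter, and replicates were not pooled.

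GEO's platform annotation paired 21640 of 34760 probe sets with 1 gene symbol and 1321 with several, and 11799 were not listed. Gene numbers of 21553 of the 21640 matched a RefSeq gene table. Levels were fitted with limma 3.58.1 in R 4.3.3 as 7 group means over 20 arrays, with p adjusted by Benjamini-Hochberg within a comparison over all 19937 genes, and genes under 0.05 were called. Replicates are separately sorted pools of mice; cells of several gates can come from 1 pool, and arrays were treated as independent. The scripts were tested on simulated data. There were 11 comparisons (5 with mutants, 3 between control gates and 3 interactions), and 27 alternatives were run: quantile normalization, array weights, dim genes left out, the mean of all probe sets of a gene, only the compared arrays, the replicate number as a block, each array left out in turn and, added later, both arrays of narrower spread left out. Precision is limited by the number of arrays.

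The genes and lists were chosen with earlier results of these data known. Named are all called genes of a mutant comparison or interaction, the 3 largest uncalled differences in each direction, up to 8 called genes in each direction between control gates, and Slc1a1. Values per array are given for genes called in a mutant comparison and for the 6 genes with the widest range of group means. Others were chosen after their values were seen. The 4 related lists and 12 lists of cell markers were written from textbook knowledge.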

Additional observations from a re-analysis of the deposited data

Results flagged for a closer look

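The difference between mutants and controls, here the mutant effect, differed between gates for 3 transporter genes, by a test of the difference itself in limma. Genotype and the selection of GFP-positive cells cannot be told apart in it. Between the luminal gates 1 of the 60 passed, against 0.14% of all genes. Between basal and Sca1-negative luminal cells 3 did, against 1.55%, and between basal and Sca1-positive luminal cells 1 did, against 1.09%. For Slc7a2, the mutant effect was 2.29 higher on the log2 scale in Sca1-positive luminal cells than in the Sca1-negative gate (adjusted p = 0.0207), a call that held under 22 of 27 alternatives. In GFP-positive basal cells the Slc7a2 effect was 2.36 higher than in the Sca1-negative luminal gate (adjusted p = 0.00217). Its levels in mutants lay below controls on all 3 arrays of the Sca1-negative gate. For Slc43a3, the effect in GFP-positive basal cells minus that in Sca1-negative luminal cells was −3.43 (adjusted p = 0.000517). Taken minus that in Sca1-positive luminal cells, it was −2.38 (adjusted p = 0.0207), a call that held under 24 of 27 alternatives. Its levels were below controls in mutant basal cells and above them in mutant luminal cells on every array. For Slc6a8, the effect in GFP-positive basal cells minus that in Sca1-negative luminal cells was −1.47 (adjusted p = 0.0359), a call that held under 14 of 27 alternatives.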

How the results depend on the processing

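Of 36 calls named, 16 were kept under every alternative tried, among them Slc1a1, Slc6a8 and Slc7a2 in Sca1-negative luminal cells and Slc1a5 in GFP-positive mutant against control basal cells, and 20 were lost under at least 1. With only the compared arrays in the fit, fewer arrays estimate the spread, and fewer of all 19937 genes were called too. In mutant against control Sca1-negative luminal cells 3 transporter genes were called, with 345 of all genes (378 in the main fit). The number was 1 in GFP-positive mutant against control basal cells, with 276 of all genes (843 in the main fit). It was 0 in GFP-positive against GFP-negative basal cells, with 134 (648 in the main fit). Basal against Sca1-negative luminal controls gave 5, with 1511 (1972 in the main fit). Basal against Sca1-positive luminal controls gave 7, with 1697 (2445 in the main fit). With dim genes left out, only 22 transporter genes were tested, among 9968 genes in all. There was 1 called in GFP-positive against GFP-negative basal cells, with 624 of all genes, and 1 between luminal controls, with 166. Slc38a3, called between GFP-positive and GFP-negative basal cells in the main fit, did not pass that filter, so it was not tested in this setting. Array weights gave 2 between luminal controls, with 231 of all genes (152 in the main fit). They gave 5 in the interaction of basal and Sca1-negative luminal cells, with 423 of all genes (310 in the main fit). In that of basal and Sca1-positive luminal cells they gave 2, with 275 (218 in the main fit). The cause was not tested. Single arrays of every group but the mutant Sca1-positive luminal one were also left out in turn. The counts were then 0 to 1 between luminal controls, with 82 to 159 of all genes. They were 0 to 1 in the interaction of the luminal gates, with 23 to 45 of all genes. In that of basal and Sca1-positive luminal cells they were 0 to 2, with 166 to 257. The Slc1a1 interaction of basal and Sca1-positive luminal cells, which was not called, ranged from −0.116 to 0.44 without 1 array, and was −0.116, −0.046 and −0.04 without mutant Sca1-positive replicate 1, control Sca1-positive replicate 2 and GFP-positive basal replicate 3. Leaving out 1 array of mutant Sca1-positive luminal cells leaves 1, which is then assumed to vary like the other groups. Slc1a1, which was not called in either comparison, differed by −0.02 to 0.13 between GFP-negative mutant and control basal cells without 1 array (−0.02 without GFP-negative replicate 1). Between basal and Sca1-positive luminal controls it differed by −0.299 to 0.085 (0.085 without Sca1-positive replicate 2), by 0.007 with array weights and by 0.085 without both arrays of narrower spread, an alternative chosen after seeing the data.

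The replicate numbers do not mark pairs in the labels. Deviations of same-numbered arrays of different groups correlated at −0.054 to 0.222 over 57 pairs (median 0.019), with 5 pairs over 0.1. Those of different-numbered arrays correlated at −0.136 to 0.082 over 114 pairs (median −0.009), with 0 over 0.1. Of 20 arrays, 15 correlated best with an array of their own number, so same-numbered arrays may not be fully independent. With the replicate number as a block, 1 transporter gene was called between luminal controls (Slc1a1, −1.21, adjusted p = 0.0415), with 150 of all 19937 genes. The calls of Slc43a1 and Slc6a8 between control gates and of Slc6a8 in the interaction of basal and Sca1-negative luminal cells were lost (adjusted p = 0.0503, 0.0553 and 0.0509).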
